A study of Xenopus laevis with 11 samples.

Results

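Neural border tissue of stage 14 Xenopus laevis embryos was compared with neural plate tissue of stage 12 embryos across all genes on an Affymetrix Xenopus laevis array. The members are the arrays titled stage 14 neural border (n = 3) and stage 12 neural plate (n = 2), which are 5 of the 11 arrays in the series. All 15491 probe sets that are not controls were used. Each probe set is aimed at the RNA of 1 transcript region, but may also detect related transcripts, which was not tested. The other 6 arrays (stage 18 neural border, n = 2, stage 18 anterior neural fold, n = 3, and animal cap grown to stage 14, n = 1) entered the model only to estimate the spread, and their values are given where a level outside the 2 groups helps. The labels name no genotype, drug or transgene for any group, and no number of embryos per array. Replicates are titled biological, yet no label ties them to separate clutches or animals, so a p-value covers array-to-array spread of this sample set, possibly technical in part.

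The neural border is the strip of ectoderm between the neural plate and the future epidermis, and it gives rise to the neural crest and, at its anterior end, to placodes and glands. During gastrulation the embryo still carries RNA and protein laid down in the egg, and during neurulation cells divide more slowly, make their own ribosomes and change their adhesion and shape as the plate folds. The groups differ both in stage and in the region dissected, so differences of age and of tissue cannot be told apart in any value below. In dissected tissue, fewer cells of a type and less RNA per cell cannot be told apart either.

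Levels are log2 intensities as deposited, so a difference of 1 is a 2-fold difference, and levels are compared between arrays and not between probe sets. Array medians lay between 4.94 and 5.04, and 17 tag control probe sets had medians of 2.94 to 3.23. A level below 3.72, the 95th percentile of the tag controls, was treated as background, and a fold against such a level may understate the difference. Log2 fold changes are stage 14 border minus stage 12 plate, with the standard error (SE) of the limma model, and a change was called at a Benjamini-Hochberg adjusted p under 0.05. Each gene is represented by its brightest probe set with 1 symbol, which gave 6505 genes, and the suffixes .L and .S mark the gene copies on the long and short chromosomes of this allotetraploid frog.

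Much of the measured transcriptome differed. In the border, 3034 probe sets were higher (19.6%) and 3318 were lower (21.4%), together 6352 of 15491 (41%). Of these, 2744 differed at least 2-fold (17.7%), 1264 higher and 1480 lower, and at least 8-fold differences were 88 higher and 71 lower. Among the 6505 named genes 3030 were called (46.6%), 1417 of them higher (21.8%) and 1613 lower (24.8%), and 1345 of them (20.7%) differed at least 2-fold. The shares of 21.8% higher and 24.8% lower are the reference for every list below. Calls ran both ways, and over the named genes the median log2 fold change was 0.00. The deposited arrays had nearly equal medians, so a shift common to most genes could not show in this value. The arrays of the groups did not overlap for 60.6% of probe sets and 65.1% of named genes. Genes named by the rule were chosen among those without overlap, so their separation is fixed by that choice.

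**Figure D1:**
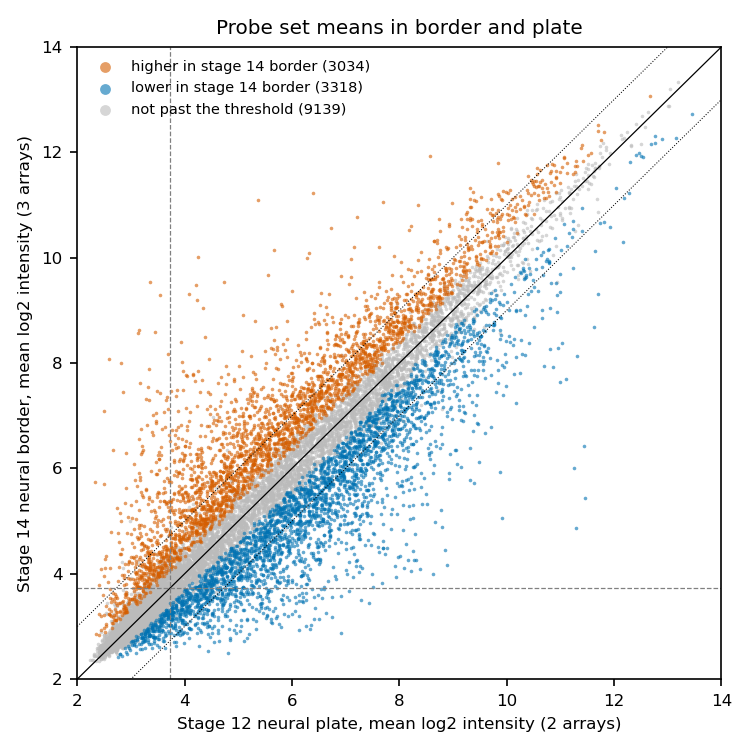
Mean log2 intensity of each of 15491 probe sets in 3 stage 14 neural border arrays (vertical axis) and 2 stage 12 neural plate arrays (horizontal axis). Orange points were higher in the border (3034), blue points lower (3318) and grey points not past the threshold; the solid line marks equality, dotted lines a 2-fold difference and dashed lines the background level of 3.72.

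The plate arrays were not equally far from the border. Correlated over all probe sets, the border and plate arrays ranged from 0.900 to 0.926, and stage 12 neural plate replicate 2 gave the upper values. Among called probe sets, plate replicate 2 lay nearer to the border mean than plate replicate 1 in 4461 of 6352 (70.2%). The plate arrays correlated with each other at 0.990 and the border arrays at 0.983 to 0.993. Without plate replicate 1, 4418 probe sets were called. Differences between the 3′ and 5′ probe sets for beta actin were -2.75, -3.08 and -2.95 in the border arrays, against -2.55 and -2.46 in the plate arrays. The same differences for the GAPD control were 2.55, 2.24 and 2.08 in the border arrays, against 2.17 and 2.44 in the plate arrays, so only the beta actin values separated the groups. Their part in the results was not tested.

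Markers of both labelled tissues were measured first. Of 10 neural crest specifiers, 7 were higher (70%) and 0 lower. snai2.L was at 8.14, 8.08 and 7.98 in the border arrays, against 2.55 and 2.63, at background, in the plate arrays (44.6-fold, adjusted p = 9.79e-06). Of 16 genes listed as border specifiers 8 were higher (50%) and 4 lower (25%). The largest changes were those of zic5.S (log2 fold change 4.46 ± 0.23 SE) and ventx2.1.S (-2.75 ± 0.24 SE). This list holds ventx1.1, ventx2.1, ventx2.2 and ventx3.2, which also stand among the early regulators below. The falls of ventx2.1.S and ventx2.2.L are thus counted in both lists, and ventx2.1.S was at 9.47 in the animal cap. Neural plate and progenitor genes went both ways, 6 higher and 5 lower of 19 (31.6% and 26.3%, against 21.8% and 24.8% among all named genes). pax6.L was higher by 3.63 ± 0.24 SE, while sox3.S, a neural progenitor factor, was lower (-1.81 ± 0.18 SE). Plate tissue also held levels of early embryonic regulators: of 31 such genes 17 were lower in the border (54.8%) and 2 higher (6.45%). tdgf1.3.L, a Cripto family co-receptor, was at 4.89, 4.66 and 5.04 in the border and 11.38 and 11.19 in the plate. Without plate replicate 2, 3 neural plate genes were higher, without plate replicate 1, 0 early regulators were higher, and without border replicate 1, 1 crest specifier was lower.

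Markers of neighbouring tissues moved with the comparison. Epidermis genes were higher in 7 and lower in 3 of 21 (33.3% and 14.3%, against 21.8% and 24.8% among all named genes). Their mean log2 level was 6.42, 6.81 and 6.71 in the border arrays, 5.69 and 5.88 in the plate arrays and 7.48 in the animal cap array, a source of epidermis. Within the border, replicate 1 was lowest. Cement gland and hatching gland genes were higher in 4 of 7 (57.1%), with mean levels of 6.35 to 6.52 in the border and 4.34 to 4.40 in the plate. Axial mesoderm genes ran the other way, 4 of 10 lower (40%) and 1 higher (10%), with mean levels of 3.73 to 3.79 in the border and 4.47 to 4.63 in the plate. Among these, tbxt.S (Brachyury) was below background in the border and at 6.30 and 5.56 in the plate. Muscle, endoderm and blood lists had 12 of 18, 8 of 15 and 14 of 22 members below background in both groups. The part these cells have in the results below was not tested.

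Carbohydrate metabolism genes were more often lower than higher in the border. Of 27 glycolysis and gluconeogenesis genes, 10 were lower and 4 higher (37% and 14.8%, against 24.8% and 21.8% among all named genes). The median log2 fold change was -0.17. The mean level of the list was 6.05, 6.19 and 6.16 in the border arrays, against 6.40 and 6.28 in the plate arrays. Its median level differed more, at 6.44, 6.08 and 6.44 in the border arrays, against 7.02 and 6.95 in the plate arrays. gpi.S, glucose-6-phosphate isomerase, was at 5.31, 5.68 and 5.50 in the border, against 7.78 and 7.15 in the plate (log2 fold change -1.97 ± 0.28 SE, 3.91-fold lower, adjusted p = 0.000366). eno1.L, the glycolytic enzyme enolase, was at 7.70, 8.57 and 8.40 in the border and 9.82 and 9.41 in the plate (2.62-fold lower, adjusted p = 0.00155). Border arrays spread more for eno1.L than for gpi.S. pfkfb3.S, whose product sets the level of the phosphofructokinase activator fructose 2,6-bisphosphate, was 2.56-fold lower (adjusted p = 0.000514). The members that rose were led by fbp1.L, fructose-1,6-bisphosphatase, the enzyme of gluconeogenesis that opposes phosphofructokinase. It was at 8.60, 8.88 and 8.90 in the border, against 5.82 and 5.99 in the plate (log2 fold change 2.89 ± 0.26 SE, 7.39-fold, adjusted p = 1.88e-05), and it was higher still in the animal cap, at 10.37. pfkm.S, a phosphofructokinase, rose 2.50-fold and hk1.L, a hexokinase, 1.94-fold against a plate level at background. slc16a3.L, a monocarboxylate transporter known for lactate export, was at 8.02, 8.13 and 8.22 in the border, against 11.33 and 11.28 in the plate (9.06-fold lower, adjusted p = 2.22e-05), a gap many times the spread of either group.

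Mitochondrial genes did not move as 1 block. In the citric acid cycle and pyruvate dehydrogenase list, 10 of 24 genes were lower (41.7%) and 1 higher (4.17%), with a median of -0.35. mdh2.S, mitochondrial malate dehydrogenase, was at 6.68, 7.16 and 7.14 in the border, against 8.38 and 8.43 in the plate (2.66-fold lower, adjusted p = 0.000356). pdhb.L, a pyruvate dehydrogenase subunit, was 2.33-fold lower (adjusted p = 2.35e-05) and sucla2.S, a subunit of succinyl-CoA synthetase, 2.63-fold lower. The exception was idh3b.S, an isocitrate dehydrogenase subunit, which was 2.38-fold higher (adjusted p = 0.000104). The respiratory chain and ATP synthase list went the other way, 22 of 52 higher (42.3%) and 2 lower (3.85%), with a median of 0.24. ndufa8.L, a subunit of complex I, was at 7.49, 7.90 and 7.72 in the border, against 5.53 and 5.15 in the plate (log2 fold change 2.37 ± 0.18 SE, 5.15-fold, adjusted p = 8.68e-06). uqcrq.S, a subunit of complex III, was at 9.32, 8.76 and 8.73 in the border, against 6.55 and 6.76 in the plate (4.86-fold, adjusted p = 2.4e-05). ndufb8.L, also of complex I, rose 4.22-fold. cox5b.2.L, a subunit of complex IV, was the largest fall, 2.61-fold (adjusted p = 0.000443). Lower respiratory chain genes were 6 without border replicate 1, and 1 without plate replicate 1 or border replicate 3. Higher citric acid cycle genes were 2 without border replicate 1.

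Amino acid genes were more often lower than higher, and fatty acid genes stood near the shares among all genes by number of calls. In amino acid, one-carbon and polyamine metabolism 14 of 41 genes were lower (34.1%) and 6 higher (14.6%), with a median of -0.20. got2.L, the mitochondrial aspartate aminotransferase, was at 5.03, 4.79 and 4.97 in the border, against 7.21 and 6.59 in the plate (3.92-fold lower, adjusted p = 0.000229). srm.L, spermidine synthase, rose 2.29-fold, while sat1.S, which acetylates polyamines for breakdown, fell 2.98-fold (adjusted p = 0.000111 and 0.000854). These polyamine genes were picked as large changes of the list, and its further polyamine genes, such as odc1 and amd1, are not described here. bcat1.L, a cytosolic branched-chain aminotransferase, rose 3.27-fold and mthfd1.L, a folate enzyme, 2.09-fold, whereas arg1.L, arginase, fell 2.90-fold. The other copy of bcat1 did not pass (log2 fold change -0.08). In fatty acid metabolism and lipid transport 10 of 34 were lower and 6 higher (29.4% and 17.6%, against 24.8% and 21.8% among all named genes). Changes of at least 2-fold were 7 lower and 1 higher. cpt2.S, which completes fatty acid entry into mitochondria, fell 4.03-fold and plin2.S, a lipid droplet coat protein, 3.20-fold (adjusted p = 4.95e-05 and 0.000153). gpam.S, which starts glycerolipid synthesis, rose 2.24-fold. Of 7 sterol genes 2 were higher (28.6%) and 1 lower (14.3%), and the largest changes were opposed. dhcr7.S, which makes cholesterol from 7-dehydrocholesterol, was at 8.05, 8.06 and 8.14 in the border, against 5.52 and 6.03 in the plate (4.95-fold higher). cyp51a1.L, the lanosterol demethylase, was at 4.20, 4.02 and 4.31 in the border, against 6.87 and 6.12 in the plate (5.00-fold lower). The plate arrays lay further apart than the border arrays for each. Without stage 12 neural plate replicate 1, 8 amino acid genes were lower and 3 fatty acid genes higher, and the sterol count of higher genes was 1 without either plate replicate or border replicate 2 or 3, with 2 lower without plate replicate 2.

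Nucleotide synthesis and glycosylation genes showed no clear lean to 1 direction, while solute carriers were more often lower than higher. Pentose phosphate and nucleotide genes were higher in 8 (23.5%) and lower in 6 (17.6%) of 34. adss2.L, an adenylosuccinate synthase, was 3.45-fold higher and rpe.S, a pentose phosphate epimerase, 3.06-fold higher. Of 102 solute carriers 19 were higher and 28 lower (18.6% and 27.5%, against 21.8% and 24.8% among all named genes). At least 2-fold changes were 8 higher and 17 lower, against 583 and 762 among all named genes. slc3a2.S, the heavy chain of amino acid exchangers, was at 5.81, 6.75 and 6.48 in the border and at background, 3.16 and 3.30, in the plate (8.68-fold, adjusted p = 2.39e-05). slc6a14.2.L, of a neutral and basic amino acid transporter family, was at 3.81, 4.61 and 4.56 in the border, against 8.23 and 7.71 in the plate (12.5-fold lower, adjusted p = 7.42e-05). The border arrays spread more than the plate arrays for both. slc25a24.L, a mitochondrial ATP-Mg/phosphate carrier, rose 7.59-fold and slc30a2.L, a zinc transporter, fell 3.87-fold. The other copies of slc3a2 and slc25a24 did not pass (log2 fold changes 0.10 and -0.07). Glycosyltransferases and sulfotransferases were higher in 13 (24.1%) and lower in 13 (24.1%) of 54. galnt16.L, which starts O-linked glycans, rose 7.46-fold and fut6.S, a fucosyltransferase, 6.92-fold, while extl2.L, of heparan sulfate synthesis, fell 3.97-fold. Without stage 12 neural plate replicate 1, solute carriers higher were 11, and glycosyltransferases were 7 higher and 7 lower. Lower nucleotide genes were 2 without plate replicate 1 and 3 without plate replicate 2.

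**Figure D2:**
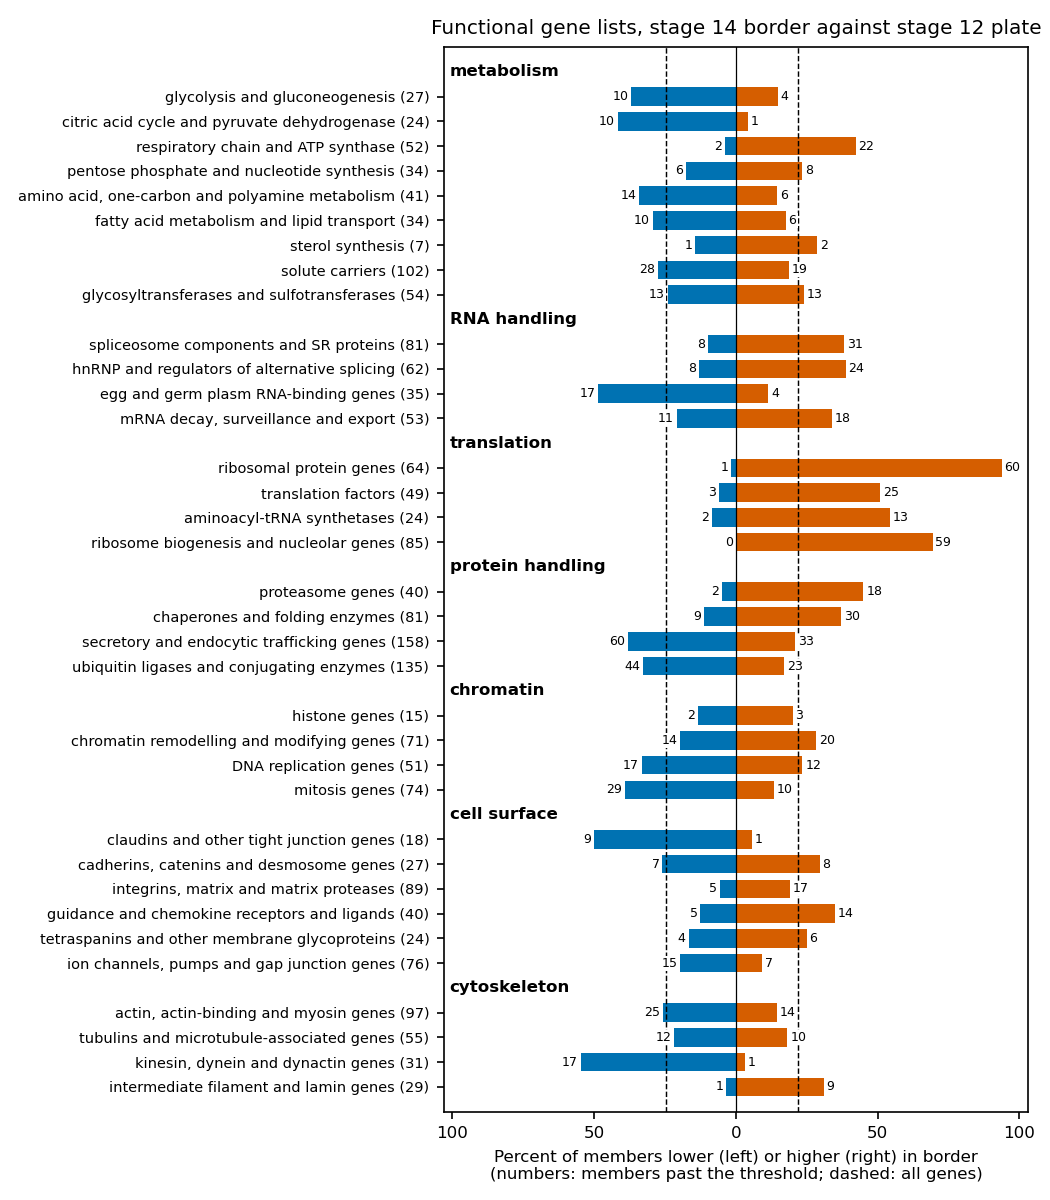
Percent of members higher (orange, right) and lower (blue, left) in the stage 14 border for 35 functional gene lists, with the number of members past the threshold beside each bar and the list size in parentheses. Dashed lines mark the shares among all named genes, 21.8% higher and 24.8% lower; ribosomal protein and ribosome biogenesis genes reach furthest to the right, and kinesin, tight junction and egg RNA-binding genes furthest to the left.

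Splicing genes were higher more often than lower, with modest sizes. Of 81 spliceosome components and SR proteins 31 were higher (38.3%) and 8 lower (9.88%), against 21.8% and 24.8% of all named genes. The median was 0.26, and 3 of the higher and 2 of the lower genes differed at least 2-fold. xab2.L, a subunit of the splicing complex also tied to DNA repair, was at 7.49, 7.31 and 7.23 in the border and 5.48 and 5.48 in the plate (3.64-fold, adjusted p = 6.35e-06). srsf7.S, an SR splicing factor, was at 11.03, 11.05 and 11.33 in the border, against 12.17 and 12.21 in the plate (2.07-fold lower, adjusted p = 0.000249). Arrays within a group lay close together for both genes. Of 62 hnRNP genes and regulators of alternative splicing 24 were higher (38.7%) and 8 lower (12.9%), with a median of 0.28. rbfox2.S, a splicing regulator of neural and muscle exons, was at 6.50, 6.30 and 6.50 in the border, against 3.75 and 4.27 in the plate (5.37-fold, adjusted p = 1.67e-05). celf3.S, a neural member of the CELF family, was at 7.19, 7.07 and 7.18 in the border, against 4.40 and 5.69 in the plate (4.30-fold, adjusted p = 0.00025). For celf3.S the plate arrays differed from each other by more than 1 unit, and the animal cap was at 3.16. rbm7.L, an adaptor of the nuclear RNA exosome, fell 2.56-fold. Without stage 12 neural plate replicate 1, 15 spliceosome and 13 alternative splicing genes were higher. Without border replicates 1 and 3 in turn, 19 and 20 spliceosome genes were higher, and 12 and 8 were lower. Quantile normalization gave 22 higher and the replicate block 21, each with 8 lower. Lower alternative splicing genes were 4 without either plate replicate or border replicate 3.

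RNA-binding genes of the egg and germ plasm stood on the other side, with 17 of 35 lower (48.6%), 4 higher (11.4%) and a median of -0.42. tdrd7.L, a Tudor-domain protein of germ granules, was at 4.52, 4.46 and 4.60 in the border, against 6.56 and 6.80 in the plate (4.47-fold lower, adjusted p = 5.39e-06). btg4.S, an adaptor of the deadenylase that clears egg RNAs, was below background at 3.24, 3.17 and 3.01 in the border, against 5.71 and 4.83 in the plate (4.37-fold lower, adjusted p = 5.14e-05). Both groups were tight for tdrd7.L, while the plate arrays of btg4.S spread more. tdrd6.L, a further Tudor-domain gene, fell 4.32-fold. The higher members included lin28a.S, which blocks let-7 maturation (2.38-fold, adjusted p = 0.0326), whose call was lost without either plate replicate, without border replicate 2 or 3 and with the replicate block. The mRNA decay, surveillance and export list was mixed, 18 higher (34%) and 11 lower (20.8%) of 53. Exosome subunits exosc4.S and exosc5.L rose 3.23-fold and 2.83-fold (adjusted p = 0.000155 and 4.55e-06). dis3l.L, a cytoplasmic exosome nuclease, was at 4.61, 4.41 and 4.89 in the border, against 7.70 and 7.15 in the plate (6.91-fold lower, adjusted p = 9.07e-06). parn.L, a poly(A) ribonuclease of oocytes and embryos, was at 4.03, 3.56 and 3.84 in the border, against 6.46 and 6.10 in the plate (5.53-fold lower, adjusted p = 6.39e-06). Both nucleases fell, while pabpc4.L, a cytoplasmic poly(A)-binding protein, rose 5.07-fold. The higher egg and germ plasm members were 2 without either plate replicate.

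**Figure D3:**
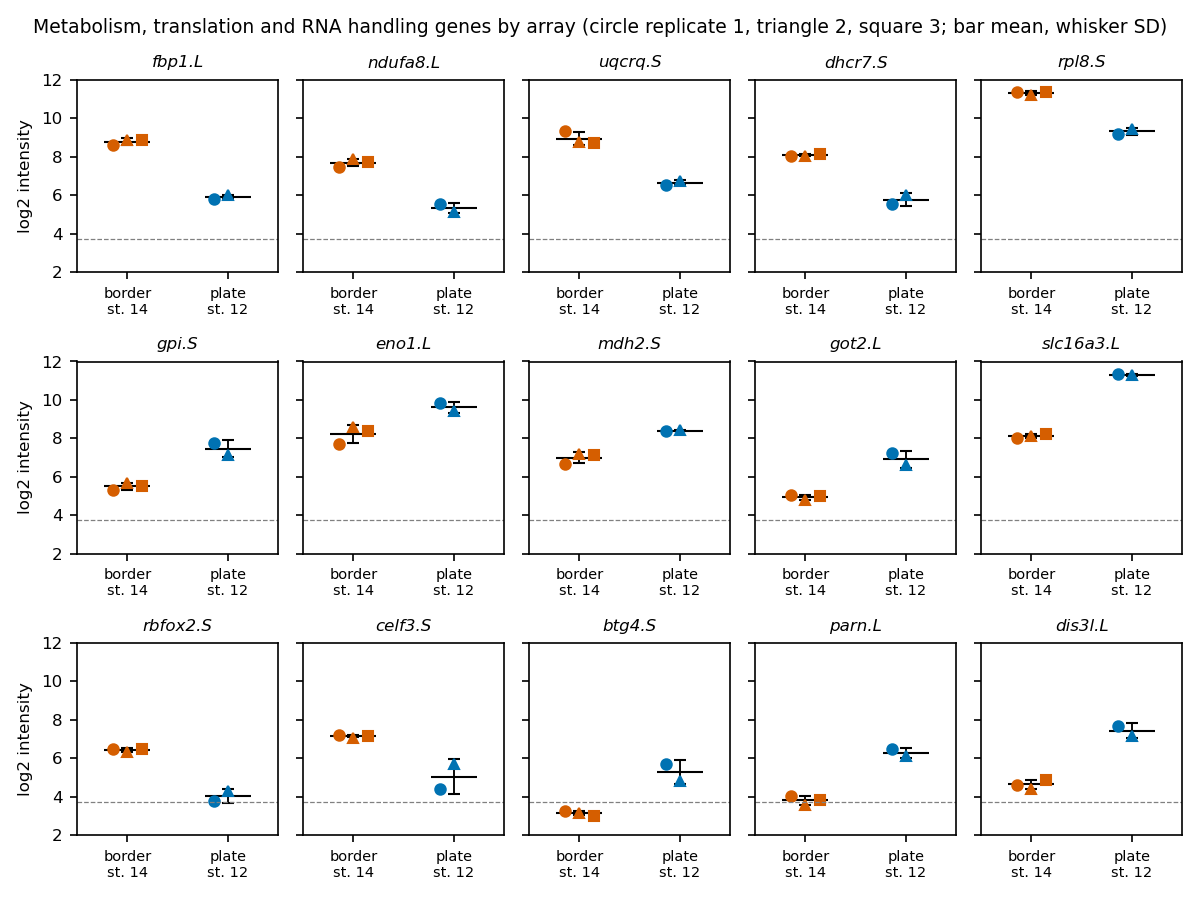
Log2 intensity of 15 metabolism, translation and RNA handling genes in each stage 14 border array (left, orange) and stage 12 plate array (right, blue), with group mean and SD; the dashed line is the background level of 3.72. In the celf3.S and btg4.S panels the plate arrays lie furthest from each other.

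The translation machinery showed the most uniform change of the functional groups described here. Of 64 ribosomal protein genes 60 were higher (93.8%), 1 was lower (1.56%) and 3 did not pass. The median log2 fold change was 0.95, and 30 rose at least 2-fold. rpl8.S, of the large subunit, was at 11.35, 11.22 and 11.40 in the border, against 9.18 and 9.46 in the plate (log2 fold change 2.00 ± 0.13 SE, 4.01-fold, adjusted p = 3.19e-06). rpl35a.S was at 11.78, 11.85 and 11.77 in the border, against 9.62 and 10.06 in the plate (3.89-fold, adjusted p = 1.03e-05). Border arrays sat close together for both genes. The lone lower member, rps10.L, of the small subunit, was at 4.24, 4.39 and 4.22 in the border and 4.75 and 4.72 in the plate (-0.45 ± 0.10 SE). Another rps10.L probe set was called in the other direction (0.62), so its direction is uncertain. Ribosome biogenesis and nucleolar genes were higher in 59 of 85 (69.4%) and lower in 0, with a median of 0.68. polr1a.L, the largest subunit of RNA polymerase I, which transcribes ribosomal RNA, was at 7.52, 7.50 and 7.59 in the border, against 5.29 and 5.65 in the plate (4.20-fold, adjusted p = 1.56e-05). rrn3.L, its initiation factor, was at 5.78, 5.19 and 5.09 in the border, against 3.56 and 3.77 in the plate (3.22-fold, adjusted p = 0.000128). The plate mean of rrn3.L was at background. mrto4.L, a ribosome assembly factor, rose 3.22-fold. Without stage 14 border replicate 2, 1 nucleolar gene was lower.

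Translation factors were higher in 25 and lower in 3 of 49 (51% and 6.12%, median 0.40). Aminoacyl-tRNA synthetases were higher in 13 and lower in 2 of 24 (54.2% and 8.33%, median 0.44). eif4a2.L, an RNA helicase of cap-dependent initiation, rose 3.51-fold (adjusted p = 3.19e-05) and eif3b.L, a scaffold subunit of initiation factor eIF3, 2.15-fold. The largest fall was eif4enif1.L, a transporter and repressor partner of the cap-binding protein, at 4.72, 5.16 and 5.41 in the border, against 6.57 and 6.31 in the plate (2.54-fold lower, adjusted p = 0.000459). tsfm.L and mtif3.L, mitochondrial translation factors, were the other members that fell, by 0.75 and 0.63 on the log2 scale, and the call for mtif3.L was lost without plate replicate 1. Among synthetases, yars1.S, for tyrosine, was at 7.72, 7.27 and 7.22 in the border, against 5.26 and 5.20 in the plate (4.52-fold, adjusted p = 5.34e-06), although other probe sets of this copy did not pass. rars2.S, the mitochondrial arginine enzyme, fell 2.47-fold (adjusted p = 0.000178). Without stage 12 neural plate replicate 1, 16 factors and 8 synthetases were higher, and 1 synthetase was lower.

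Protein quality control divided by step. Proteasome genes were higher in 18 and lower in 2 of 40 (45% and 5%, against 21.8% and 24.8% among all named genes). Their median was 0.46. psmd14.S, the deubiquitinase of the proteasome lid, was at 7.55, 7.44 and 7.55 in the border, against 4.97 and 5.86 in the plate (4.27-fold, adjusted p = 5.76e-05). Its plate arrays lay almost 1 unit apart. Chaperones and folding enzymes were higher in 30 (37%) and lower in 9 (11.1%) of 81. The rises were led by fkbp9.L and fkbp11.L, prolyl isomerases of the endoplasmic reticulum (5.03-fold and 4.71-fold, adjusted p = 2.09e-05 and 5.77e-06). Ubiquitin ligases and conjugating enzymes, by contrast, were lower in 44 (32.6%) and higher in 23 (17%) of 135. rnf41.L, a ligase that targets receptor tyrosine kinases, was at 4.65, 4.44 and 4.55 in the border, against 7.61 and 7.11 in the plate (7.02-fold lower, adjusted p = 1.84e-06). rnf34.L, a further RING ligase, was at 6.91, 6.81 and 6.80 in the border, against 9.44 and 9.51 in the plate (6.21-fold lower, adjusted p = 6.08e-07). Border arrays varied by less than 0.3 for either. trim29.L, a TRIM protein of epithelia, rose 5.39-fold and was higher still in the animal cap, at 11.63. Without stage 12 neural plate replicate 1, ubiquitin genes were 29 lower and 15 higher, chaperones were 19 higher and 4 lower, and 1 proteasome gene was lower.

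Trafficking genes were lower in 60 and higher in 33 of 158 (38% and 20.9%, against 24.8% and 21.8% among all named genes). Their median was -0.08. golga2.S, a Golgi matrix protein, was at 4.85, 4.69 and 4.75 in the border, against 8.52 and 8.07 in the plate (log2 fold change -3.53 ± 0.15 SE, 11.6-fold lower, adjusted p = 4.36e-07). lamp1.L, a lysosomal membrane glycoprotein, was at 4.97, 3.77 and 4.10 in the border, against 6.38 and 6.58 in the plate (4.60-fold lower). rab21.L, an endosomal GTPase, fell 5.44-fold. The members that rose most were GTPases of regulated secretion. rab3d.L was at 6.39, 7.83 and 7.17 in the border and near background, 3.35 and 4.04, in the plate (10.8-fold, adjusted p = 9.69e-05). rab27a.S was at 5.38, 6.35 and 5.92 in the border and near background, 3.24 and 3.74, in the plate (5.25-fold, adjusted p = 0.000101). Both were lowest in border replicate 1, as the epidermis list was, and the animal cap held 7.28 and 8.39. Without stage 12 neural plate replicate 1, trafficking genes were 36 lower and 21 higher.

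Chromatin and replication genes went both ways, and mitosis genes were more often lower than higher. Of 15 histone genes 3 were higher (20%) and 2 lower (13.3%). h2ac17.L, an H2A gene, was at 4.64, 4.62 and 4.01 in the border, against 8.47 and 8.05 in the plate (14.3-fold lower, adjusted p = 9.43e-07). Variant genes h2az2.S and h2ax.S rose 2.66-fold and 2.30-fold, and h3-3b.L, an H3.3 gene, fell 2.08-fold. Histone genes are near-identical copies, so probe sets may share transcripts. Chromatin remodelling and modifying genes were higher in 20 (28.2%) and lower in 14 (19.7%) of 71. kat7.L, a histone acetyltransferase, was 4.69-fold higher and sirt4.L, a mitochondrial sirtuin, 2.83-fold lower. Replication genes were lower in 17 and higher in 12 of 51 (33.3% and 23.5%, against 24.8% and 21.8% among all named genes). mcm6.2.L, a helicase subunit, was at 8.13, 8.32 and 8.48 in the border, against 5.19 and 6.25 in the plate (6.03-fold, adjusted p = 4.49e-05). mcm3.L, of the same complex, was at 3.49, 3.48 and 3.54 in the border, below background, against 6.35 and 5.54 in the plate (5.43-fold lower, adjusted p = 1.3e-05). These subunits were picked as the largest rise and fall of the list, and further members of their complex are not described here. prim2.S, a primase subunit, was 5.10-fold higher, and orc6.L, of the origin recognition complex, was 4.37-fold lower. Mitosis genes were lower in 29 and higher in 10 of 74 (39.2% and 13.5%, median -0.24), and 35 did not pass. ccnb1.S, a cyclin B, was at 3.65, 4.0 and 3.82 in the border, against 8.26 and 7.08 in the plate (14.4-fold lower, adjusted p = 5.36e-06). ccna1.S, an embryonic cyclin A, was at 3.34, 4.18 and 4.01 in the border, against 6.41 and 5.59 in the plate (4.44-fold lower). The plate arrays lay further apart for ccnb1.S. By brightest probe sets, smc2.L, a condensin subunit, was the largest rise, 2.35-fold. Another probe set of cdca7.L, also in this list, was called higher by 3.70 on the log2 scale. Without border replicate 1, 5 histone genes were higher. Without plate replicate 1, 12 chromatin and 4 mitosis genes were higher.

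**Figure D4:**
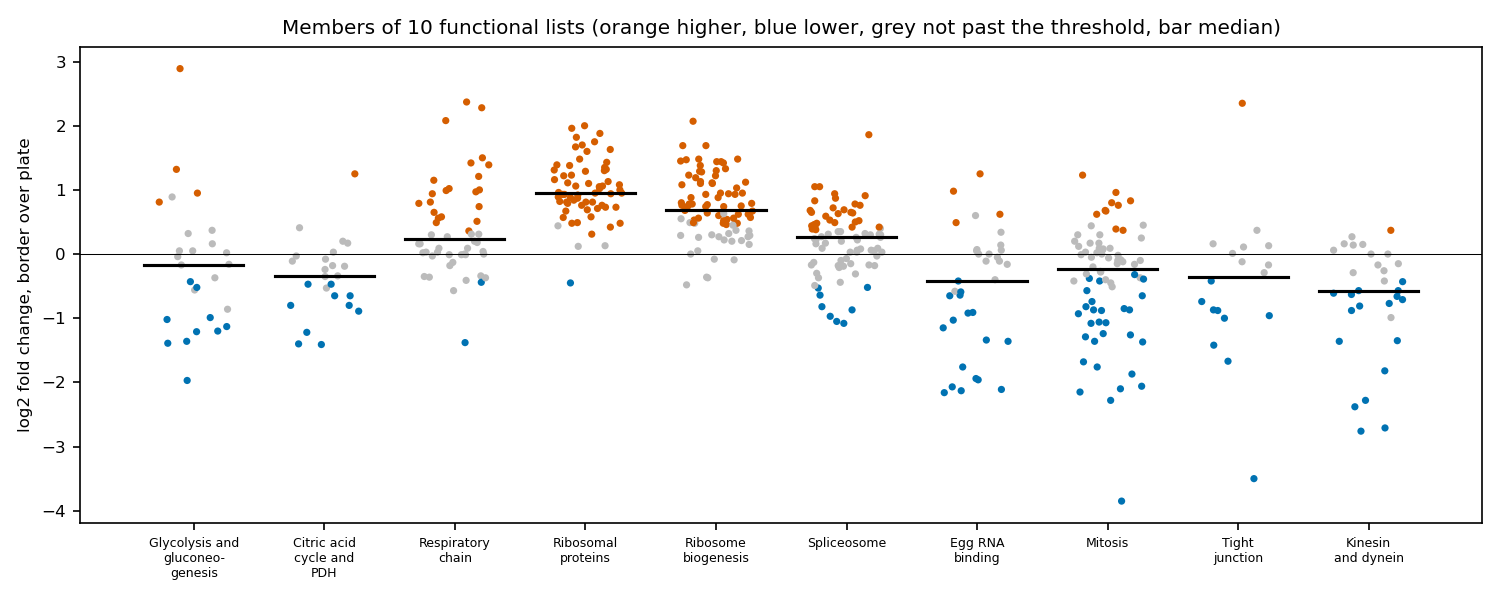
Log2 fold change (border over plate) of every member of 10 functional lists, 1 point a gene, with the list median as a bar; orange points were higher, blue points lower and grey points did not pass. Ribosomal protein genes sit almost wholly above 0 around a median of 0.95, and kinesin and dynein genes mostly below 0 around -0.57.

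At the cell surface, cell contact genes changed by type. Of 18 claudins and other tight junction genes 9 were lower and 1 higher (50% and 5.56%, against 24.8% and 21.8% among all named genes). Their median was -0.35. cgnl1.L, a junction plaque protein related to cingulin, was at 3.94, 4.03 and 4.04 in the border, against 7.73 and 7.26 in the plate (log2 fold change -3.50 ± 0.15 SE, 11.3-fold lower, adjusted p = 4.36e-07). ocln.S, occludin, was at 6.15, 6.19 and 6.01 in the border, against 7.90 and 7.68 in the plate (3.19-fold lower, adjusted p = 9.75e-06). cldn7.L, a claudin, was at 9.68, 9.85 and 9.89 in the border, against 11.27 and 11.19 in the plate (2.68-fold lower, adjusted p = 8.7e-05). The border arrays agreed to within 0.3 for each of them. The exception was cldn1.S, at 4.17, 5.80 and 5.48 in the border, against 2.78 and 2.83, below background, in the plate (5.09-fold higher, adjusted p = 0.00153). Its border arrays spread widely, and another cldn1.S probe set did not pass (0.11). Higher tight junction genes were 2 without border replicate 1.

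Cadherins, catenins and desmosome genes were higher in 8 and lower in 7 of 27. These shares (29.6% and 25.9%) were near those among all named genes (21.8% and 24.8%). cdh2.L, N-cadherin, the cadherin of neural tissue, was at 6.68, 6.45 and 6.52 in the border and below background, 2.68 and 3.64, in the plate (10.5-fold, adjusted p = 8.94e-06). pcdh8l.S, a protocadherin, was at 7.43, 7.15 and 7.49 in the border, against 3.49 and 3.86 in the plate (12.8-fold, adjusted p = 2.24e-06). Its plate mean was below background. cdh3.L, the maternal cadherin of early Xenopus blastomeres, went the other way, at 9.41, 9.92 and 9.71 in the border, against 10.47 and 10.88 in the plate (1.99-fold lower, adjusted p = 0.00296). However, 2 further cdh2.L probe sets did not pass. ppl.L, periplakin of the epidermal cell envelope, rose 5.50-fold against a plate level at background. pkp3.L, a desmosomal plakophilin, fell 2.44-fold, while its .S copy was higher by 2.15 on the log2 scale.

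Integrin, matrix and protease genes were higher in 17 and lower in 5 of 89, and 67 did not pass. These shares were 19.1% and 5.62%, against 21.8% and 24.8% among all named genes. Of the 89 genes, 43 were below background in both groups. olfm4.L, a secreted olfactomedin-domain protein, had the largest rise of any gene outside the marker lists. It was at 10.33, 11.61 and 11.35 in the border, against 5.05 and 5.70 in the plate (log2 fold change 5.73 ± 0.41 SE, 52.9-fold, adjusted p = 5.89e-06), and at 5.05 in the animal cap. mmp28.L, a matrix metalloprotease, was at 6.14, 7.02 and 6.74 in the border, against 3.39 and 3.44, below background, in the plate (9.29-fold, adjusted p = 1.01e-05). serpinh1.S, a collagen chaperone, was at 8.89, 6.75 and 8.20 in the border, against 3.99 and 5.55 in the plate (9.04-fold, adjusted p = 0.00234). The last gene spread by more than 1.5 units within each group. Chosen after their values were seen, mmp14.L, a membrane-bound protease known from crest migration, rose by 2.19 on the log2 scale, and vcan.L, the proteoglycan versican, by 1.28 (adjusted p = 1.2e-06 and 0.00066). itgb1.L, the beta 1 integrin chain, was at 8.82, 8.99 and 8.95 in the border, against 9.78 and 9.83 in the plate (1.85-fold lower, adjusted p = 0.00045). egfl7.S, a secreted EGF-like protein, fell 2.90-fold, to a level below background. Lower members of this list were 2 without plate replicate 1 and 3 without border replicate 1 or 3.

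Guidance and chemokine genes were higher in 14 and lower in 5 of 40 (35% and 12.5%, against 21.8% and 24.8% among all named genes). ncam1.S, the neural cell adhesion molecule, was at 7.56, 7.30 and 7.61 in the border, against 3.36 and 4.35 in the plate (12.4-fold, adjusted p = 8.47e-06). efnb1.L, an ephrin-B ligand of Eph receptors, was at 7.32, 7.45 and 7.45 in the border, against 4.57 and 4.94 in the plate (6.30-fold, adjusted p = 8.5e-07). slit2.S, a ligand of Robo receptors, rose 4.92-fold against a plate level at background. The plate arrays of ncam1.S lay about 1 unit apart. rgma.L, a GPI-linked guidance molecule and BMP co-receptor, fell 2.44-fold and sema6d.L, a transmembrane semaphorin, 2.12-fold (adjusted p = 0.000257 and 0.00291). Lower guidance genes were 3 without plate replicate 2.

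Channels, pumps and gap junction genes were lower in 15 and higher in 7 of 76. Both shares (19.7% and 9.21%) were below those among all named genes (24.8% and 21.8%). Of the 76 genes, 34 were below background in both groups. aqp3.L, a water and glycerol channel, was at 7.81, 8.40 and 8.04 in the border, against 4.65 and 4.25 in the plate (12.4-fold, adjusted p = 1.14e-06), and at 4.66 in the animal cap. kcnk5.S, a two-pore-domain potassium channel, was at 4.09, 4.0 and 4.25 in the border, against 7.32 and 7.30 in the plate (9.20-fold lower, adjusted p = 6.19e-06). These were the largest changes of the list in each direction. Tetraspanins and related glycoproteins were higher in 6 and lower in 4 of 24 (25% and 16.7%). emp2.L, an epithelial membrane protein, rose 11.2-fold and was at 9.97 in the animal cap, while tspan1.L, a tetraspanin, fell 9.07-fold (adjusted p = 2.33e-06 and 1.33e-05). Higher members of the tetraspanin list were 3 without plate replicate 1 or border replicate 3.

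**Figure D5:**
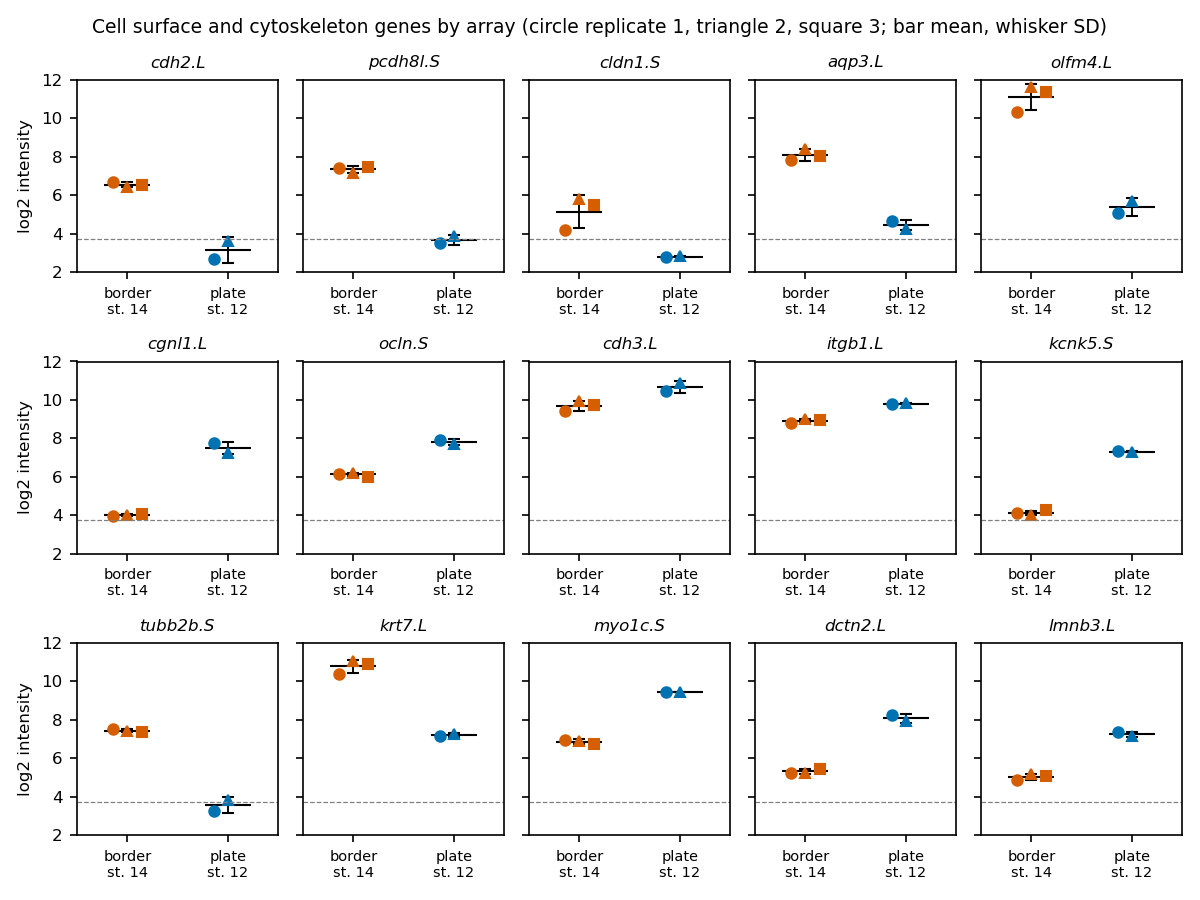
Log2 intensity of 15 cell surface and cytoskeleton genes in each stage 14 border array (left, orange) and stage 12 plate array (right, blue), with group mean and SD; the dashed line is the background level of 3.72. The plate means of cdh2.L, pcdh8l.S, cldn1.S and tubb2b.S are below background, and cgnl1.L and kcnk5.S lie close to it in the border. cdh3.L and itgb1.L differ by about 1 unit from high levels.

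Microtubule motors were the most one-sided cytoskeletal list. Of 31 kinesin, dynein and dynactin genes 17 were lower (54.8%) and 1 higher (3.23%), with a median of -0.57. Among all named genes 24.8% were lower and 21.8% higher. dctn2.L, the dynamitin subunit of dynactin, was at 5.23, 5.24 and 5.46 in the border, against 8.23 and 7.92 in the plate (log2 fold change -2.76 ± 0.19 SE, 6.79-fold lower, adjusted p = 4.49e-06). dynll2.S, a dynein light chain, was at 5.31, 4.95 and 5.16 in the border, against 7.69 and 8.02 in the plate (6.56-fold lower, adjusted p = 0.000134). nde1.L, a dynein regulator of nuclear and spindle positioning, was at 4.58, 4.98 and 4.99 in the border, against 7.41 and 7.04 in the plate (5.19-fold lower, adjusted p = 1.32e-05). All border arrays lay about 2 units or more below both plate arrays. kif23.S, the cytokinesis kinesin, fell 4.85-fold. The 1 higher member, kif11.S, at 1.30-fold (adjusted p = 0.0494), lost its call under 12 of 16 alternative settings. Without plate replicate 1, 10 of the motor genes were lower.

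Tubulins and microtubule-associated genes were mixed, 10 higher and 12 lower of 55. These shares (18.2% and 21.8%) were near those among all named genes (21.8% and 24.8%). tubb2b.S, a beta tubulin of neural tissue, was at 7.52, 7.41 and 7.36 in the border, against 3.25 and 3.84 in the plate (log2 fold change 3.89 ± 0.16 SE, 14.8-fold, adjusted p = 4.36e-07). Its plate mean was below background. dpysl3.L, a collapsin response mediator of growth cones, was at 7.47, 7.65 and 7.26 in the border, against 4.53 and 4.35 in the plate (8.10-fold, adjusted p = 6.08e-07). Of 23 neuron genes 10 were higher and 0 lower, with 1 lower without plate replicate 2. The higher share of the neuron genes was 43.5%, against 21.8% among all named genes. tubgcp3.S, of the gamma-tubulin complex that nucleates microtubules, was at 3.56, 3.69 and 3.52 in the border, below background, against 6.49 and 5.76 in the plate (5.81-fold lower, adjusted p = 1.13e-05). Higher tacc3.S, a spindle protein, was 4.44-fold above the plate.

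Actin, actin-binding and myosin genes were lower in 25 and higher in 14 of 97. The lower share (25.8%) was near that among all named genes (24.8%), and the higher share (14.4%) was below it (21.8%). myo1c.S, a membrane-linked class I myosin, was at 6.96, 6.90 and 6.73 in the border, against 9.43 and 9.45 in the plate (5.98-fold lower, adjusted p = 2.1e-06). shroom1.L, of the Shroom family of actin-binding proteins, was at 4.98, 4.65 and 4.77 in the border, against 7.15 and 7.01 in the plate (4.86-fold lower, adjusted p = 9.08e-06). Both groups were tight for these genes. pdlim1.S, an adaptor of actin stress fibres, rose 3.16-fold and septin12.S, a septin, 3.10-fold. The other copy of pdlim1 did not pass (log2 fold change 0.05). Without plate replicate 1 the actin list was 14 lower and 7 higher, and without plate replicate 2 it was 9 higher.

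Intermediate filament and lamin genes were higher in 9 and lower in 1 of 29. These shares were 31% and 3.45%, against 21.8% and 24.8% among all named genes. Of the 29 genes, 16 were below background in both groups. The keratins krt12.2, krt12.4, krt12.5, krt12.6, krt18.1, krt51, krt55, krt57, krt70 and krt8.1 stand in the epidermis list too. The filament count and the epidermis count therefore share these members. krt12.4.L was at 9.17, 10.02 and 9.83 in the border, against 5.59 and 5.51 in the plate (17.5-fold, adjusted p = 2.43e-06), and at 12.50 in the animal cap. krt12.5.S was at 9.61, 10.61 and 10.20 in the border, against 4.85 and 6.47 in the plate (22.3-fold, adjusted p = 2.52e-05). krt7.L was at 10.41, 11.05 and 10.89 in the border, against 7.15 and 7.27 in the plate (11.9-fold, adjusted p = 9.65e-07). For krt12.4.L, krt12.5.S and krt7.L border replicate 1 was the lowest of the border, and the animal cap exceeded every border array. vim.L, vimentin, the filament of neural progenitors and mesenchyme, was chosen after its value was seen and averaged 10.33 in the border, against 8.70 in the plate (log2 fold change 1.63 ± 0.17 SE, adjusted p = 4.9e-05). The 1 lower member of the list was lmnb3.L, a lamin of the Xenopus egg and early embryo. It was at 4.85, 5.16 and 5.09 in the border, against 7.35 and 7.16 in the plate (4.66-fold lower, adjusted p = 7.15e-06). Lower members were 2 without plate replicate 2, border replicate 3 or either stage 18 border replicate.

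Outside all marker lists, p2ry4.L, a nucleotide receptor, was among the largest rises. It was at 8.79, 8.60 and 8.38 in the border and at background, 3.41 and 3.50, in the plate (35.2-fold, adjusted p = 1.4e-07). c3.L, complement component 3, was at 10.98, 11.51 and 11.22 in the border, against 5.43 and 7.34 in the plate (28.8-fold, adjusted p = 2.38e-05). rpe65.S, an isomerohydrolase of retinoids, was at 10.18, 10.10 and 9.70 in the border, against 6.11 and 6.47 in the plate (13-fold, adjusted p = 7.07e-07). The plate arrays of c3.L lay almost 2 units apart, and those of the others agreed closely. Regional regulators pax2.L, lmx1b.1.S and wnt8a.L rose 16.8-fold, 17.2-fold and 13.5-fold. Of the remaining rises, otogl2.L, related to the mucin-like otogelins (23.6-fold), and sult6b1.5.L, a sulfotransferase (18.8-fold), were at 8.87 and 7.85 in the animal cap. The plate means of both were below background.

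Outside the marker lists the largest fall was LOC100036828, a symbol that names no gene. It was at 6.91, 5.98 and 6.39 in the border, against 11.47 and 11.40 in the plate (32.2-fold lower, adjusted p = 8.73e-06), and at 11.55 in the animal cap. foxi4.2.S, a forkhead gene of the FoxI family, was at 3.99, 4.31 and 4.48 in the border, against 9.09 and 7.54 in the plate (16.7-fold lower, adjusted p = 2.1e-05), and at 8.33 in the animal cap. sds.L, serine dehydratase, was at 3.91, 4.68 and 4.17 in the border, against 8.16 and 8.18 in the plate (15.1-fold lower, adjusted p = 1.98e-06). lhx5.S, a LIM homeobox gene of the anterior plate, was at 5.00, 4.74 and 5.19 in the border, against 8.71 and 8.63 in the plate (13-fold lower, adjusted p = 9.65e-07). The plate arrays differed for foxi4.2.S and matched for the others. crx.L, an otx-related homeobox gene, fell 10.6-fold, nasp.S, a histone chaperone, 10.3-fold, and foxr1.L and lpar6.L, a forkhead gene and a lysophosphatidic acid receptor, 10.3-fold and 10.5-fold to border levels below background.

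Gene copies did not always move together. Both homeologs were measured for 1017 genes, and for 299 of them both copies were called, 263 in the same direction and 36 in opposite directions. One copy alone was called for 355 genes and neither for 363. Across these genes the log2 fold changes of the copies had a Pearson r of 0.582, as a description over genes that share the 5 arrays. Chosen after their values were seen, atg16l1, of autophagosome formation, was higher by 1.60 ± 0.15 SE for .L and lower for .S (-2.34 ± 0.25 SE). fen1, the flap endonuclease of replication, was higher by 1.23 for .L and lower for .S (-0.74), and plin3, a lipid droplet coat protein, was lower for .L (-2.89) and higher for .S (0.70). cdc42ep4, a Cdc42 effector, was higher by 0.98 for .L and lower for .S (-1.18). Probe sets may cross-hybridise between copies, which was not tested.

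Levels in the later and the reference tissues stood on either side of the border values. Ribosomal gene rpl8.S averaged 11.33 at the stage 14 border, 11.45 at the stage 18 border and 11.52 in the stage 18 anterior neural fold, and was 10.88 in the animal cap. fbp1.L averaged 8.79, 9.48 and 8.76 in the same border and fold groups. slc16a3.L averaged 8.12 at the stage 14 border, 7.05 at the stage 18 border and 5.21 in the fold. pcdh8l.S averaged 7.36, 8.23 and 4.79 in that order, and snai2.L 8.07, 8.13 and 4.12, so both were lower in the fold than at either border stage. cyp51a1.L averaged 4.18 and 4.12 at the stage 14 and 18 borders and 3.69 in the fold. These means were not tested here.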

How the data were processed

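Per the labels' protocols, tissue was microdissected, RNA was isolated with Trizol and columns, and biotin-labelled copies were hybridised to Affymetrix arrays. The authors deposited 1 value for each of 15611 probe sets and array, taken as log2 intensities from their range of 2.13 to 13.56; the submitters' processing notes name R 2.14.2, and the background correction, summary method, normalization, centring and any filter are not given in the sources used here. No value was missing (0) and 0 array pairs were identical.

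The 120 control probe sets were left out. The platform annotation gave 1 symbol to 9304 of the other 15491, several to 195 and none to 5992; 9227 symbols matched the RefSeq gene table and 77 were kept as given. The 11 arrays entered 1 limma 3.58.1 model in R 4.3.3 (group means, eBayes, two-sided tests, Benjamini-Hochberg over 15491 probe sets, threshold 0.05; 6 residual and 3.75 prior degrees of freedom). SDs are over arrays; the single animal cap array has none. On simulated data the model called 40 of 50 genes lowered and 28 of 50 raised by 1 log2 unit. At 2 units it called 49 and 50 of 50, and it called 6 of 15291 unchanged ones. Far fewer probe sets changed there than the 41% called in the data, so these counts do not carry over. Each size was given to different probe sets in 1 draw, so 40 and 28 do not compare the directions.

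The members and the 47 gene lists, written from textbook knowledge, were chosen with earlier results of these data known, so no p is given for a list; each list is described by counts beside those of all genes. The lists are 35 functional and 12 marker lists, and some genes stand in more than 1; a further list is not reported here. Genes were named by a rule: in each functional list the 3 largest rises and 3 largest falls past the threshold without overlap between arrays, the 15 largest of each direction outside marker lists, and 2 of each direction in marker lists. Same-numbered arrays did not pair: the deviations of plate and border arrays of the same number correlated at -0.0331 and -0.0166. Alternatives were quantile normalization, median centring, a filter on dim probe sets, only the 5 arrays, trend and robust eBayes, a replicate block, leaving out each array of a replicated group, and, for lists alone, averaging over the probe sets of a gene or separate homeologs. Batches are not named in the labels.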

Additional observations from a re-analysis of the deposited data

How the results depend on the processing

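No count over all probe sets moved by more than 1.5 times under any of 16 alternative settings, which were also run for named genes. No gene named by the rule changed sign. Choosing genes without overlap between arrays fixed that outcome for every setting that left out an array. With only the 5 arrays, trend and robust eBayes or the dim filter, the log2 fold change is the same by construction. Quantile normalization gave 6389 calls (3142 higher and 3247 lower), median centring 6331 (3141 and 3190), the 4528 dim probe sets left out 5766 (2915 and 2851), only the 5 arrays 6184, and trend and robust eBayes 6365. With a replicate block, although the labels do not pair arrays by number, 5848 probe sets were called (2797 higher and 3051 lower). In that setting 7 of 240 named genes lost their call. Leaving out each array of a replicated group in turn gave 4418 to 6543 calls, 2117 to 3137 higher, 2301 to 3406 lower and 2358 to 3056 at least 2-fold. The lowest came without stage 12 neural plate replicate 1, which leaves 1 plate array, assumed to vary like the other groups; 24 named genes then lost their call, and 35 of 94 list counts moved by more than 1.5 times. Lists with more members higher than lower were 19 of 35, and 15 to 20 under 18 alternatives. Of 3830 values of named genes, 3753 kept their call and 77 lost it. The genes concerned were 26, among them acsl1.L, atp5mc3.S, dut.L, dctd.L, npc2.S, lsm5.L, kif11.S, has2.S and lin28a.S. The cause was not tested. Of 240 named genes, 95 had another probe set, and for 3 of these (rps10.L, pkp3.L and epas1.L) one was called the other way. For 19 of the 95 no other probe set was called, among them slc3a2.S, slc25a24.L, bcat1.L and pdlim1.S. The number of arrays limits the precision, and 281 called probe sets had both means below background.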

Other observations

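A stress gene varied within both groups. hsp70.L, an inducible heat shock protein chosen after its values were seen, was at 8.68, 4.04 and 7.40 in the stage 14 border arrays, against 7.33 and 9.03 in the stage 12 plate arrays. The arrays overlapped and the difference did not pass (adjusted p = 0.318 in limma). It was at 5.13 in the animal cap and averaged 3.83 and 3.64 in the stage 18 border and anterior neural fold. serpinh1.S, a collagen chaperone also induced by heat, ran in the same order among border arrays, at 8.89, 6.75 and 8.20. It was at 3.99 and 5.55 in the plate arrays. Between the groups these genes went opposite ways: hsp70.L averaged 6.70 in the border and 8.18 in the plate, and serpinh1.S 7.95 and 4.77. A link between them was not tested.

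Probe sets with no single symbol changed too. Of 6187 such probe sets 2178 were called (35.2%), against 46.6% of the brightest probe sets of named genes, and they cannot be assigned to a list here.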
